A study of Mus musculus with 58 samples.

Results

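Ighm codes for the constant part of the heavy chain of immunoglobulin M. It was followed here with 6 other genes of the B lymphocyte lineage, Cd79a, Cd79b, Ms4a1, Vpreb1, Igll1 and Pax5, in limb and respiratory muscle of immunodeficient mice. The group was selected on measured values: it was put together because Ighm was so much lower in the limb muscle of tumour-bearing mice than in that of controls. That contrast is given below as a description, with no test. Of the 7 genes, 6 had a probe set among the 23185 named genes of the array, and Vpreb1 was not analysed here.

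A developing B cell first makes the IgM heavy chain and pairs it with a surrogate light chain built from the products of Vpreb1 and Igll1, and this pre-B cell receptor signals through Cd79a and Cd79b. Pax5 is the transcription factor that commits a cell to the lineage, and Ms4a1 codes for CD20 on the surface of mature B cells. A rearranged and expressed heavy chain needs the recombination of V, D and J segments, which the kinase encoded by Prkdc helps to complete. NSG mice carry the scid mutation of Prkdc and lack the interleukin 2 receptor gamma chain, and are known for having no mature B, T or NK cells.

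The arrays measured total RNA of the tibialis anterior, a limb muscle, and the diaphragm, the main breathing muscle, of adult female NSG mice. In the PDX groups (patient-derived xenograft), pieces of a pancreatic ductal adenocarcinoma resected from a cachectic patient had been fixed to the pancreas. Sham mice had the surgery and no tumour, and tissue was taken once the tumour-bearing mice were severely cachectic or their tumours had passed a size limit. Each of 4 cohorts carried the tumour of 1 patient, so all PDX mice of a cohort share a tumour source. All groups share the NSG background, and no immunocompetent mouse was among them. Each muscle had 29 arrays, 12 sham (3 in each cohort) and 17 PDX (3, 5, 5 and 4 in cohorts 1 to 4). Levels are log2 signals as deposited, so a difference of 1 is a doubling, and array medians lay between 3.70 and 3.86. The 16 skeletal muscle fibre markers averaged 10.07 to 11.32 on single arrays. Markers of liver and pancreas cells varied more in the diaphragm: the mean of 20 hepatocyte and acinar genes ran from 4.00 to 8.33 in sham and from 3.98 to 8.61 in PDX arrays. On that mean 11 of the 29 diaphragm arrays (5 sham, 6 PDX) stood over 1 log2 unit above the diaphragm median. Below this cut, PDX array 2 of cohort 3 read 5.797 and PDX array 4 of cohort 4 read 5.851. Sham array 3 of cohort 4 read 6.015 and PDX array 2 of cohort 1 read 6.255. The other arrays below it read 3.98 to 4.56. Leaving out the 11 arrays thus need not remove all such RNA.

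Ighm was high in the sham tibialis anterior and much lower there in nearly every tumour-bearing mouse. In cohort 1 the sham arrays read 7.75, 8.97 and 8.16 and the PDX arrays 5.09, 5.27 and 5.04. In cohort 3 the sham arrays read 8.89, 8.06 and 8.70, against 4.46, 4.34, 4.34, 4.40 and 3.90 with a tumour. In cohort 4 the sham levels were 8.92, 8.63 and 9.22 and the PDX levels 4.72, 4.80, 5.70 and 6.46. In these 3 cohorts the groups did not overlap. Every PDX array lay below every sham array of its cohort. The same was so for 12.6% of all genes in cohort 1, 5.46% in cohort 3 and 6.76% in cohort 4.

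Cohort 2 was the exception. Its sham arrays read 8.58, 7.62 and 8.11, while the PDX arrays spread over 4.43, 6.89, 6.97, 8.76 and 6.40, so the groups overlapped (2.85% of all genes had every PDX array below every sham array here). PDX array 4 was above all 3 sham arrays, PDX array 1 was as low as the arrays of the other cohorts, and the other 3 lay between. The PDX group of cohort 2 had an SD of 1.55 (n = 5), against 0.22 (n = 5) in cohort 3.

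Over the tibialis anterior as a whole, the 12 sham arrays ran from 7.62 to 9.22 with a median of 8.60, and the 17 PDX arrays from 3.90 to 8.76 with a median of 5.04. Of the 17 PDX arrays, 16 lay below the lowest sham array, and the share of all genes with such a count was not computed. The mean over cohorts of PDX minus sham was -3.08 on the log2 scale (SE 0.28, 95% interval -3.65 to -2.52), which is 0.118 of the sham level. By cohort it was -3.16, -1.41, -4.26 and -3.51 for cohorts 1 to 4. Of all 23185 genes, Ighm had the lowest difference in this muscle, where 12.8% of genes passed a limma adjusted p under 0.05 (6.53% of all genes lower with a tumour, 6.32% higher) and the median gene differed by -0.0051. Since this difference is why the gene was chosen, nothing is read from its rank.

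In the diaphragm, whose arrays the choice did not use, Ighm was also lower in the tumour-bearing mice, by a smaller amount. The labels do not state whether both muscles came from the same mice. If they did, the diaphragm values are not independent of that choice. Cohort 1 sham arrays read 6.11, 6.06 and 6.34 and its PDX arrays 6.04, 5.75 and 5.15. In cohort 2 the sham levels were 7.24, 6.95 and 6.29, and the PDX levels 5.49, 6.52, 6.44, 6.75 and 5.49. The groups of cohort 1 met without overlapping, and in cohort 2 PDX arrays 2, 3 and 4 lay above the lowest sham array. In cohort 3 the sham arrays lay far apart, at 7.45, 5.97 and 4.64, with PDX arrays at 5.17, 4.29, 4.70, 5.19 and 5.17. Cohort 4 gave 7.44, 6.44 and 7.22 in sham and 5.05, 4.63, 5.26 and 5.29 in PDX.

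The groups did not overlap in cohorts 1 and 4, where 11% and 7.72% of all genes had every PDX array below every sham array, and they overlapped in cohorts 2 and 3, where 4.05% and 3.23% of genes did so. Across the muscle, sham arrays ran from 4.64 to 7.45 (median 6.39) and PDX arrays from 4.29 to 6.75 (median 5.26). All 17 PDX arrays lay below the sham mean of their own cohort, but only 2 lay below every sham array of the muscle. Each sham mean rests on 3 arrays, and the share of all genes with such counts was not computed.

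**Figure D1:**
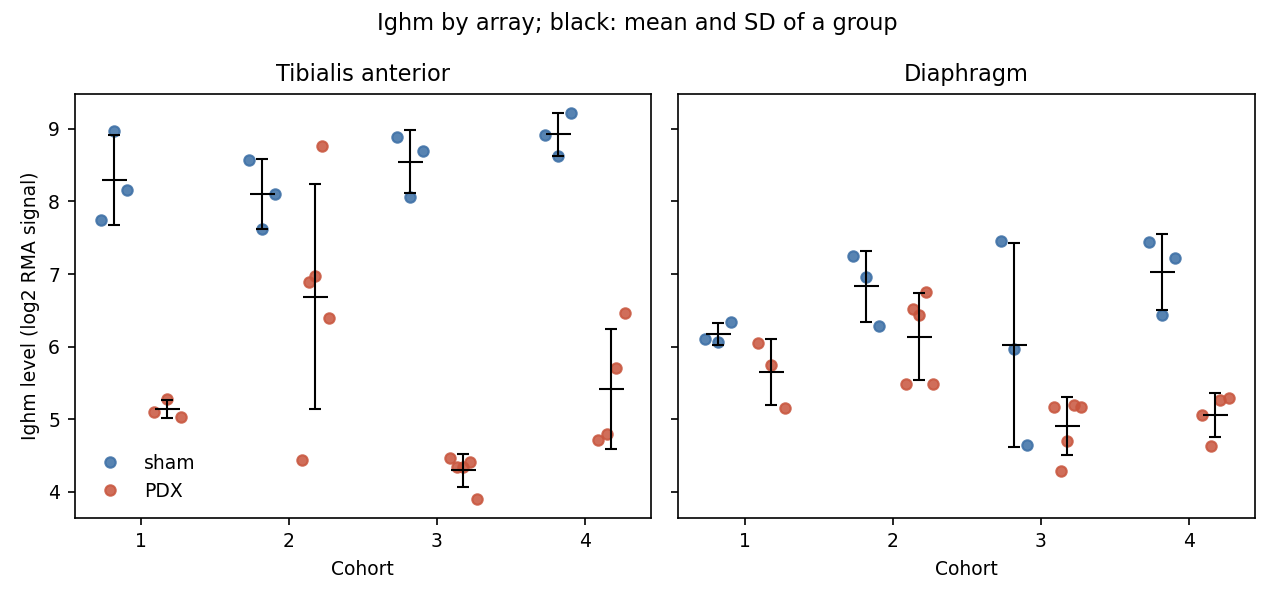
Ighm level (log2 RMA signal) of every array by cohort, with the tibialis anterior on the left and the diaphragm on the right, sham in blue and PDX in red, and black bars for the mean and SD of a group of 3 to 5 arrays. The tibialis anterior groups are apart in cohorts 1, 3 and 4, while cohort 2 has a PDX array at 8.76, and the diaphragm groups lie closer together.

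Ighm fell in the diaphragm by 1.08 on the log2 scale (SE 0.22, 95% interval -1.52 to -0.63), to 0.474 of the sham level (interval 0.348 to 0.647), and limma's adjusted p over all genes was 0.00148. In this comparison 12.5% of genes passed, 6.58% of all genes being lower with a tumour. Ighm had the 25th lowest difference of all genes and the 18th lowest of those that passed. Of the 6 measured genes of the group, 1 passed, which is Ighm itself. The call rested on cohort 4: without it the difference was -0.78 and the limma adjusted p 0.0712. Without the 11 diaphragm arrays high in hepatocyte and acinar markers the difference was -0.77. That setting left 1 sham and 1 PDX array in cohort 1. In cohort 3 it left 1 sham array, the lowest of that group at 4.64.

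Fewer cells of a type and less RNA per cell cannot be told apart in such whole-muscle RNA, here and in every value below. The labels do not say that each array is a separate animal, and the p-values rest on the variation between arrays.

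The 4 cohorts' own diaphragm differences were -0.52 (SE 0.47), -0.69 (SE 0.42), -1.12 (SE 0.42) and -1.97 (SE 0.44), or 0.696, 0.619, 0.461 and 0.255 of the sham level. Taken alone, cohort 4 passed, with a limma adjusted p of 0.0442 among 0.319% of genes called lower in that cohort. Cohorts 1, 2 and 3 did not pass, with limma adjusted p of 0.895, 0.455 and 0.242 where 0.0129%, 0.483% and 0.457% of genes were called lower. The cohort differences themselves were not shown to differ, since the moderated F test of limma gave Ighm an adjusted p of 0.775. Only 1 gene of the array passed that test (0.00431%), the clock gene Per1 with a limma adjusted p of 0.000652.

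In cohorts 1 to 4 the tibialis anterior differences were -3.16, -1.41, -4.26 and -3.51 and the diaphragm differences -0.52, -0.69, -1.12 and -1.97, so the limb muscle had the greater drop in each cohort. The mean difference was 2.01 log2 units less negative in the diaphragm (SE 0.37), given as a description because the limb contrast enters it. The muscles also started from different levels. Every sham tibialis anterior array (lowest 7.62) lay above every sham diaphragm array (highest 7.45). The mean sham level of the tibialis anterior was 3.88 times that of the diaphragm, a difference of -1.95 (SE 0.28) for diaphragm minus tibialis anterior. Between the sham muscles 39.7% of all genes passed limma's adjusted p, and the share of genes without overlap was not counted. These values are a description too, since the sham limb levels enter the contrast behind the choice. With a tumour the muscles came to like means, 5.41 (SD 1.29, n = 17) in the tibialis anterior and 5.43 (SD 0.68, n = 17) in the diaphragm.

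Ranked by mean, the 4 sham tibialis anterior groups were highest, from 8.92 in cohort 4 through 8.55 and 8.29 to 8.10 in cohort 2. The sham diaphragm groups of cohorts 4 and 2 followed, at 7.03 and 6.83. The PDX tibialis anterior of cohort 2 came next at 6.69, then the sham diaphragm of cohort 1 at 6.17, the PDX diaphragm of cohort 2 at 6.14 and the sham diaphragm of cohort 3 at 6.02. The lowest groups were all PDX: diaphragm of cohort 1 at 5.65, tibialis anterior of cohorts 4 and 1 at 5.42 and 5.13, diaphragm of cohorts 4 and 3 at 5.06 and 4.90, and tibialis anterior of cohort 3 at 4.29. Of the 15 pairs of neighbours in this order, 14 overlapped in their arrays. The pair that did not was the sham tibialis anterior of cohort 2 and the sham diaphragm of cohort 4, whose means lay 1.07 apart. Within the tibialis anterior Ighm had the 4th largest SD over arrays of all genes, and within the diaphragm the 522nd. These SDs span sham and PDX arrays together. The rank in the tibialis anterior thus takes in the difference on which Ighm was chosen, and nothing is read from it.

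The other 5 measured genes of the group stayed low on all 58 arrays, and none passed limma's adjusted p for a tumour effect in either muscle. A rough scale for low signal came from 1082 olfactory receptor probe sets, genes best known from the nose. Whether muscle expresses some of them was not tested. The mean signals of these probe sets had a median of 1.77 and a 95th percentile of 3.50. A probe set's signal depends on its probes, so no order between genes is read from such values.

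Cd79a and Cd79b, the signalling chains that carry IgM at the cell surface, ran from 1.95 to 2.95 and from 2.71 to 3.56 over the 58 arrays. Of the olfactory receptor probe sets, 76.1% had a lower mean signal than Cd79a and 91.7% a lower one than Cd79b. Igll1, the lambda 5 part of the surrogate light chain, ran from 2.07 to 3.17, above 79.2% of them. Pax5 ran from 2.42 to 3.88, above 88.7% of them, and Ms4a1 from 1.72 to 2.73, above 66.9%. Ighm ran from 3.90 to 9.22, and its mean was above that of every olfactory receptor probe set (highest 5.57). The spread differed in the same way, but that of Ighm takes in the tumour difference on which it was chosen. The SD over 58 arrays was 0.203 to 0.314 for the 5 genes and 1.49 for Ighm, against a median of 0.306 and a 95th percentile of 0.534 for the olfactory receptor probe sets.

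**Figure D2:**
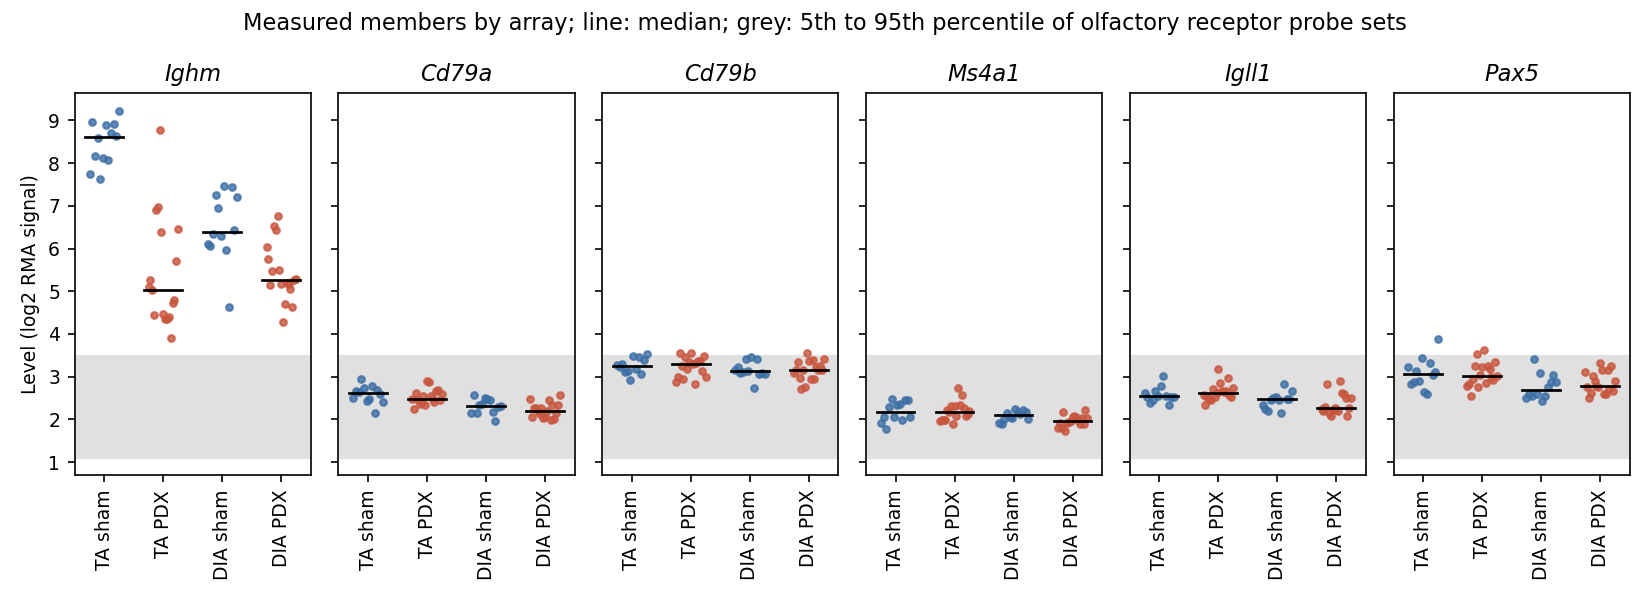
Level (log2 RMA signal) of the 6 measured genes on each of the 58 arrays, by muscle and treatment, with a line at the median and a grey band from the 5th to the 95th percentile (1.10 to 3.50) of the olfactory receptor probe sets' mean signals. Ighm lies above the band on every array and differs between groups, while Cd79a, Cd79b, Ms4a1, Igll1 and Pax5 lie mostly inside it in all 4 groups.

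In the diaphragm, Cd79a differed by -0.08 (SE 0.07, 95% interval -0.23 to 0.07, limma adjusted p = 0.593). Sham arrays had a median of 2.32 (1.95 to 2.56) and PDX arrays one of 2.21 (1.99 to 2.57), and the groups overlapped throughout. Cd79b differed by -0.00204 (SE 0.09, interval -0.18 to 0.18, limma adjusted p = 0.994), with medians of 3.13 in sham and 3.16 in PDX. Igll1 differed by -0.09 (SE 0.09, interval -0.27 to 0.08, limma adjusted p = 0.594) and Pax5 by 0.09 (SE 0.09, interval -0.11 to 0.29, limma adjusted p = 0.658). All 4 had mean signals no higher than the 95th percentile of olfactory receptors, where a drop in expression need not show in the signal.

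Ms4a1 came nearest to passing in the diaphragm, at -0.12 (SE 0.05, interval -0.22 to -0.03), with an unadjusted p of 0.0159 and a limma adjusted p of 0.0967. It had the same sign in all 4 cohorts (-0.10, -0.14, -0.16 and -0.09). Its sham arrays had a median of 2.10 (1.89 to 2.25) and its PDX arrays one of 1.96 (1.72 to 2.22), within the range of olfactory receptor signals. At an unadjusted limma p under 0.05, 1 of the 5 was lower in the diaphragm, against 23.5% of all genes that differed at that level.

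In the tibialis anterior the 5 differences were -0.06 for Cd79a, -0.03 for Cd79b, -0.02 for Ms4a1, 0.06 for Igll1 and -0.05 for Pax5. None of the 5 passed limma's test there after adjustment or at an unadjusted p under 0.05, where 12.8% of all genes passed after adjustment. The differences between the muscles' tumour effects did not pass for any of the 5 (limma adjusted p 0.514 to 0.96, with 6.33% of genes passing). Between sham muscles, Cd79a (-0.27, limma adjusted p = 0.00393) and Pax5 (-0.31, limma adjusted p = 0.0223) were lower in the diaphragm, where 39.7% of genes passed and the median gene was at -0.09. Both calls were lost after another quantile normalization over all arrays, with limma adjusted p of 0.0633 and 0.115.

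The rest of the immunoglobulin loci had no probe set with a difference as low as that of Ighm, but most of them gave little signal. The array named 201 probe sets by the symbols of immunoglobulin genes and Jchain, and 200 remained beside Ighm: among others 88 heavy chain V segments, 3 heavy chain J segments, the other 6 heavy chain constant genes, 94 kappa V and 3 kappa J segments and 3 lambda V segments. Of the 200, 166 had a mean signal no higher than the 95th percentile of the olfactory receptor probe sets, and so did 5 of the 6 other constant genes, so a drop could hardly have been seen in them. The 34 above it ran from -0.33 to 0.24 in the tibialis anterior and from -0.33 to 0.54 in the diaphragm. The median of all 200 was 0.0014 in the tibialis anterior and -0.028 in the diaphragm, beside -0.0051 and -0.0043 over all genes. In the diaphragm 1 of the 200 rose and none fell by limma's adjusted p, while 11 were lower and 3 higher at an unadjusted p under 0.05. These 14 are 7% of the 200, against 23.5% of all genes at that level and 12.5% after adjustment. Limb muscle had 2 higher and 1 lower, where 12.8% of all genes passed.

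The 6 other constant genes code for the heavy chains that replace IgM after class switching. In the tibialis anterior Igha, Ighe, Ighg1, Ighg2b, Ighg2c and Ighg3 differed by 0.00078, -0.032, 0.0020, -0.166, -0.0088 and 0.092. In the diaphragm they differed by -0.11, -0.034, 0.010, -0.208, -0.202 and -0.043. None of the 6 passed limma's adjusted p in either muscle, while Ighg2b had an unadjusted p of 0.0474 in the first and 0.0327 in the second. Igkc, the constant part of the kappa light chain, differed by -0.19 (SE 0.12) in the tibialis anterior and by 0.08 (SE 0.11) in the diaphragm.

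The probe set that rose in the diaphragm was Igkj1, a kappa joining segment, by 0.54 (SE 0.13), or 1.45-fold, with a limma adjusted p of 0.00664. Sham arrays averaged 5.73 and PDX arrays 6.26. The call was lost without cohort 1 (limma adjusted p = 0.0964), without cohort 4 (0.0585) and without the arrays high in hepatocyte and acinar markers (0.12). Higher in the tibialis anterior were 2 kappa V segments (0.50 and 0.39, limma adjusted p 0.0455 and 0.00228), and the heavy chain V segment Ighv2-6-8 was lower (-0.78, limma adjusted p = 0.0083). These limb muscle calls were all in probe sets with a mean signal no higher than the 95th percentile of olfactory receptor signals. None of them passed in the diaphragm.

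The genes beside Ighm on the chromosome, in the order of the RefSeq gene table for GRCm38.p6, showed no difference as large as its own in either muscle. Of 24 measured neighbours, 3 were lower by limma's adjusted p in the tibialis anterior and none in the diaphragm, and 1 rose in the diaphragm. Over all genes 6.53% were lower in the tibialis anterior, and 6.58% were lower and 5.89% higher in the diaphragm. The table lists Ighm as a constant region segment. The position and build of the probes themselves were not stated in the labels or files, so no coordinate is printed. On one side lie the other constant genes, from Ighg3 outwards to Igha, and then Tmem121, Tedc1, Crip1 and Crip2. On the other side lie the J segments Ighj4, Ighj3 and Ighj1, followed by Adam6b, Adam6a and the V segments. Ighj4, the nearest measured neighbour on that side, differed by -0.10 (SE 0.08) in the tibialis anterior and by -0.24 (SE 0.09, limma adjusted p = 0.0712) in the diaphragm. Ighj3 differed by 0.03 and 0.11 and Ighj1 by -0.17 and -0.07 in the same order. The 3 neighbours lower in the tibialis anterior were Crip1 (-0.47, limma adjusted p = 0.0131), Crip2 (-0.37, limma adjusted p = 0.0276) and Btbd6 (-0.25, limma adjusted p = 0.0134), all beyond the constant genes. Crip1, a small LIM domain protein, was higher in the diaphragm (0.48, limma adjusted p = 0.0051).

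**Figure D3:**
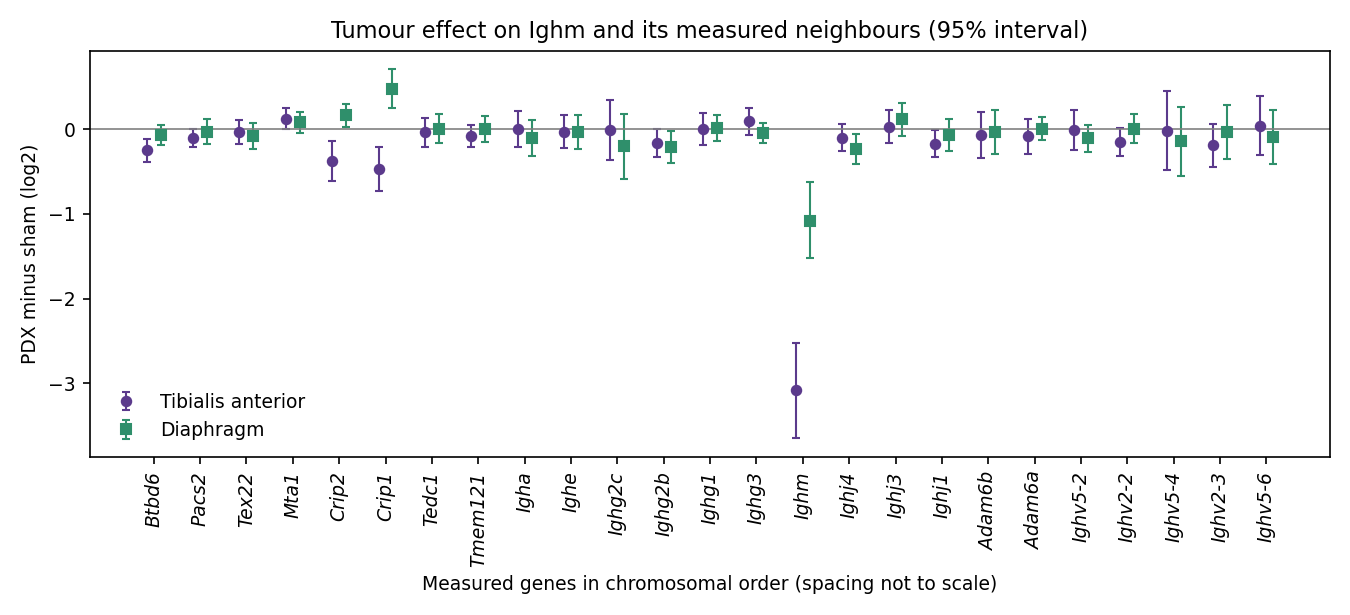
PDX minus sham (log2) with its 95% interval for Ighm and the measured genes around it in chromosomal order, not to scale, with the tibialis anterior as purple circles and the diaphragm as green squares. Ighm stands at -3.08 and -1.08 while the other constant genes and the J and V segments lie near 0 in both muscles and Crip1 lies at -0.47 and 0.48.

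Markers of B lineage cells other than these genes were taken from lists. The pro-B and pre-B list had 19 measured genes and none passed limma's adjusted p in either muscle, while 2 in the tibialis anterior (10.5%) and 3 in the diaphragm (15.8%) had an unadjusted p under 0.05, a level that 23.8% and 23.5% of all genes reached. Rag1, Rag2 and Dntt, which recombine the receptor genes and add bases at the joins, had mean signals of 2.08, 1.96 and 1.95, below the 95th percentile of olfactory receptors. Ebf1, a B lineage factor that other cell types also express, had a mean of 6.75 and differed by 0.07 in the diaphragm and -0.14 in the tibialis anterior. Vpreb2, the near-identical copy of Vpreb1, had a mean of 6.45 and differed by 0.17 in the diaphragm (limma adjusted p = 0.217) and by -0.06 in the tibialis anterior. With copies this alike, the arrays may not tell them apart.

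Of the 19 measured mature B cell markers none passed in the tibialis anterior by limma's adjusted p (4, or 21.1%, at an unadjusted p under 0.05, against 23.8% of all genes), and 2 rose in the diaphragm, where 5.89% of all genes did. Cd74, the chaperone of MHC class II, which macrophages make as well, rose 2.42-fold there (limma adjusted p = 1.76e-06). Cd72, a receptor of B cells that other leukocytes carry too, rose 1.35-fold (limma adjusted p = 0.00647), a call lost without cohort 1 and without the arrays high in hepatocyte and acinar markers. Of 14 plasma cell markers, Txndc5 fell in the tibialis anterior (-0.34, limma adjusted p = 0.000309) and Slamf7 rose in the diaphragm (0.34, limma adjusted p = 0.0127, lost without cohort 1). The mean signals of Cd72 (3.065) and Slamf7 (2.552) were no higher than the 95th percentile of olfactory receptor signals. Jchain, which joins IgM into pentamers, had a mean of 1.52 and differed by -0.07 in the tibialis anterior and -0.02 in the diaphragm. Together these lists held 51 genes, 30 of them with a mean no higher than the 95th percentile of olfactory receptor signals. Of the 51, 1 was lower in the tibialis anterior and 3 were higher in the diaphragm, where 6.53% of all genes were lower and 5.89% higher, so these counts are no more than the background.

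Of 25 measured genes that signal at or below the B cell receptor, 8 rose and 1 fell in the diaphragm (median difference 0.23, beside -0.0043 over all genes and 5.89% of all genes higher). Syk, the kinase that binds phosphorylated Cd79a and Cd79b, rose 1.74-fold (limma adjusted p = 2.32e-05). Inpp5d, an inositol phosphatase, rose 1.73-fold (limma adjusted p = 3.67e-05), and the low-affinity IgG receptor Fcgr2b 1.65-fold (limma adjusted p = 0.0222). The Fcgr2b call was lost without cohort 1, 2 or 4, and without sham array 3 of cohort 3, sham array 1 of cohort 1 or PDX array 2 of cohort 1. The count of 8 became 4 without cohort 1, 4 without cohort 2, 5 without sham array 3 of cohort 3 and 5 without PDX array 2 of cohort 1. In the same arrays 16 of 22 macrophage and monocyte markers rose and none fell (median difference 0.75). Their mean ran from 4.69 to 5.54 in sham and from 5.28 to 6.53 in PDX diaphragm, and its part in the signalling genes was not tested. Among 19 B lineage transcription factors 6 rose in the diaphragm and none fell, led by Runx1 (1.92-fold), Spi1 (1.7-fold) and Ikzf1 (1.4-fold), which also act in myeloid cells. In the tibialis anterior 1 signalling gene was higher and 2 were lower (median -0.0038), and 1 of the 19 factors, Foxo1, was higher. Over all genes 6.32% were higher and 6.53% lower in that muscle. Of 15 markers of plasmacytoid dendritic cells, which share genes with B cells, 4 rose in the diaphragm and 2 were lower in the tibialis anterior. Tlr7 rose 1.87-fold, Lair1 1.64-fold and Irf8 1.37-fold (limma adjusted p 0.000726, 5.43e-05 and 0.00215), and the Irf8 call was lost without cohort 1 and without the arrays high in hepatocyte and acinar markers.

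Proteins that bind or carry IgM (Fcmr, Fcamr, Pigr, Cd5l and Jchain) gave no call in either muscle by limma's adjusted p or at an unadjusted p under 0.05. Over all genes 12.8% passed after adjustment in the tibialis anterior and 12.5% in the diaphragm, and 23.8% and 23.5% at the unadjusted level. Of 22 T and NK cell markers, 1 (Thy1, also on fibroblasts) was lower in the tibialis anterior and 1 (Cd4, also on macrophages) rose in the diaphragm. With 6.53% of all genes lower in the first and 5.89% higher in the second, these counts are no more than the background. The mean of the T and NK cell markers stayed between 2.60 and 3.07 over all arrays. Prkdc differed by -0.02 and 0.01 in the tibialis anterior and diaphragm.

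The tibialis anterior samples also differed in connective tissue genes. Of 17 fibroblast markers 16 were lower with a tumour there and none higher (median -0.75), and of 12 tendon markers 10 were lower (median -1.05), where 6.53% of all genes were lower. The fibroblast list mean ran from 6.42 to 7.18 in sham and from 4.75 to 6.42 in PDX tibialis anterior. In the diaphragm, where Ighm also fell, 6 of the 17 fibroblast markers rose and 1 fell (5.89% of all genes were higher and 6.58% lower), and the list mean ran from 7.13 to 7.70 in sham and from 7.17 to 8.22 in PDX. The part of connective tissue in the Ighm difference was not tested.

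Over the 29 tibialis anterior arrays, the named genes whose levels followed Ighm most closely were Mdga1 (Pearson r = 0.92), Ptges3l (0.914), Col6a1 (0.914), Col3a1 (0.911), Col1a1 (0.907) and Gamt (0.895). These arrays share the division into sham and PDX, so any gene with a large tumour difference scores high, and over all genes the central 95% of r lay between -0.63 and 0.66. In the 29 diaphragm arrays the same genes had r of 0.423, 0.556, 0.07, -0.10, -0.09 and 0.181. Col1a1, a fibrillar collagen of fibroblasts and tendon, was 2.55 lower in the tibialis anterior and rose by 0.68 in the diaphragm (limma adjusted p = 0.0127), where Ighm fell. Col3a1 did likewise, at -1.89 and 0.66.

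With each group's mean taken away, the 58 deviations hold only the variation among arrays of a group. The genes most like Ighm on that measure were Pld5 (r = 0.654), Eml1 (0.595), Grb14 (0.593), Kcng4 (0.593), Xpr1 (0.59) and Arhgef11 (0.567), against a central 95% of -0.39 to 0.34 over all genes. The most opposed were Olfr969 (-0.674), Snord47 (-0.668) and Psmd13 (-0.667). Olfr969 is itself an olfactory receptor, with a mean signal of only 1.294. The measure leaned on PDX arrays 1 and 4 of tibialis anterior cohort 2, the farthest from their group mean. Without them (56 arrays, deviations taken anew) r was 0.438 for Pld5, 0.494 for Eml1, 0.518 for Grb14, 0.424 for Kcng4, 0.286 for Xpr1 and 0.56 for Arhgef11. The central 95% of all genes was then -0.39 to 0.33, so Xpr1 fell within it. The opposed 3 had r of -0.51, -0.602 and -0.442. The likest 6 were picked out of 23184 genes, so high values were bound to appear. Of these 6, all but Arhgef11 also fell in the diaphragm, where 6.58% of all genes were lower by limma's adjusted p. Grb14, an adaptor that restrains insulin receptor signalling, fell by 1.19 (limma adjusted p = 4.15e-07), and Kcng4, a potassium channel subunit, by 0.71 (limma adjusted p = 4.67e-05). Pld5 fell by 0.30, Eml1 by 0.31 and Xpr1 by 0.18 (limma adjusted p 0.0182, 0.0245 and 0.0497). Pld5 averaged 2.995 in sham and 2.688 in PDX diaphragm, under the 95th percentile of olfactory receptor signals (3.50). Grb14 had an r with Ighm of 0.893 over tibialis anterior levels and 0.705 over diaphragm levels.

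**Figure D4:**
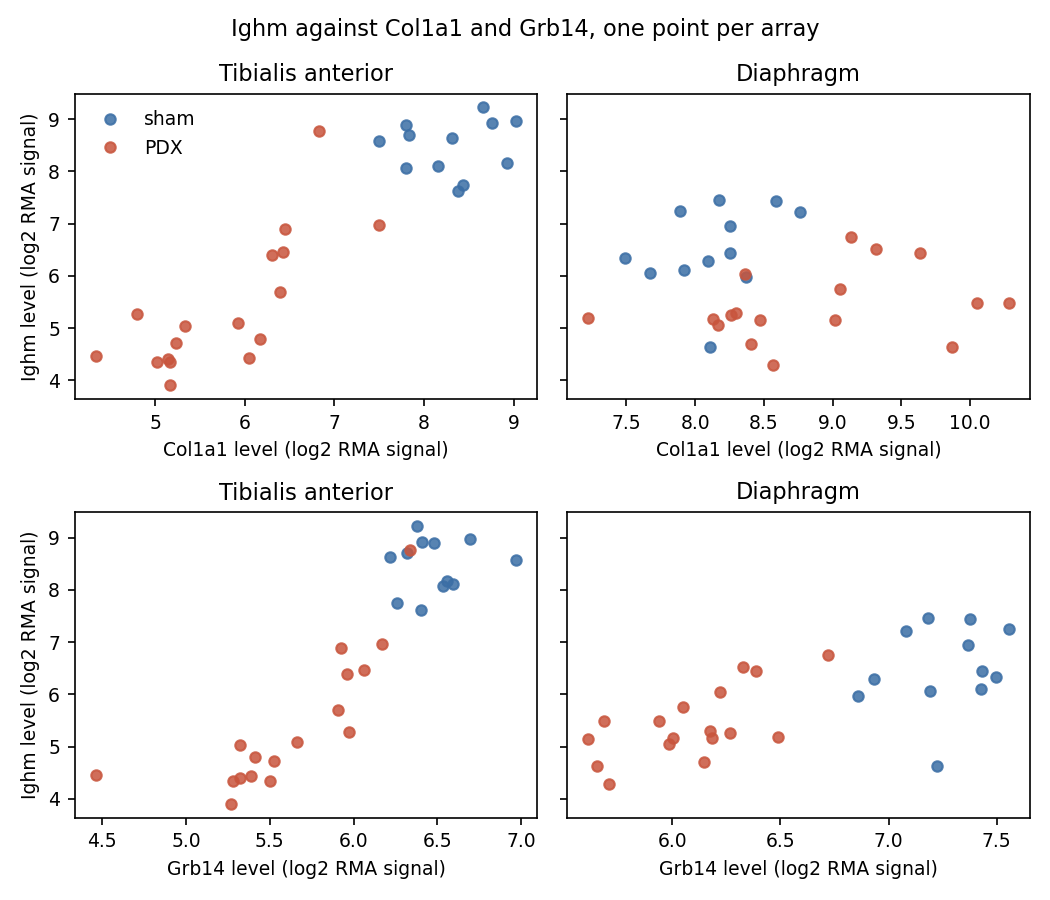
Ighm level against Col1a1 (top) and Grb14 (bottom) on every array (log2 RMA signal on all axes), with the tibialis anterior on the left and the diaphragm on the right, sham in blue and PDX in red. Both genes run with Ighm in the tibialis anterior (r = 0.907 and 0.893), while in the diaphragm Grb14 does (0.705) and Col1a1 does not (-0.09).

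The other genes of the group did not follow Ighm from array to array. Over tibialis anterior levels their r with Ighm lay between -0.30 (Igll1) and 0.04 (Cd79b), and over the 58 deviations between -0.17 (Igll1) and 0.12 (Ms4a1), all inside the central 95% of all genes. Their mean signals were all no higher than the 95th percentile of olfactory receptor signals, where shared variation need not show.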

How the data were processed

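The authors deposited log2 signals computed by RMA with affy 1.36.1 in R 2.15.1, per the submitters' processing notes. RMA corrects background, quantile-normalizes the arrays and summarizes the probes of a set, so a change shared by most genes would be removed. That the deposited values are log2 was read from the values. How probe sets were defined, on which build, and whether the cohorts were normalized as 1 set was not stated in the labels or files. Genes were named by the platform annotation: 23185 of 25206 probe sets had 1 symbol and 2021 had none. No pair of arrays was identical (highest correlation 0.993), and 0 columns belonged to another series.

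The muscles were fitted separately with limma 3.58.1 (R 4.3.3, statmod 1.5.0), with 1 mean per cohort and treatment and no filter. The tumour effect is the equal-weighted mean over 4 cohorts of PDX minus sham. Tests are two-sided and Benjamini-Hochberg adjusted over 23185 genes, with a threshold of 0.05. Muscles were set against each other in a fit of all 58 arrays. The fits were tested on simulated data. The number of arrays limits the precision.

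The genes and the 21 lists were chosen with earlier results of these data known. Named were the members, other immunoglobulin genes, up to 3 genes with the largest passing difference per list and muscle, the 6 genes likest Ighm in tibialis anterior levels, the 6 likest and 3 most opposed in deviations, and muscle fibre markers. The neighbours of Ighm, Per1, and markers given for their level (Rag1, Rag2, Dntt, Ebf1, Vpreb2, Prkdc) were added after their values were seen.

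Equal replicate numbers did not pair the samples: same-numbered sham and PDX arrays had deviations correlated with a median of -0.02 in the tibialis anterior and 0.04 in the diaphragm. Alternatives covered normalization, array weights, variance prior, dim genes, cohort weighting, single cohorts, single arrays and arrays high in liver or pancreas markers.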

Additional observations from a re-analysis of the deposited data

Results flagged for a closer look

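Of 36 groups of 4 or 5 arrays of the 6 measured genes that were checked for a single array far from the rest, 2 had one, and chance gives about 1 in 20. Ighm in PDX array 5 of cohort 3 in the tibialis anterior was 3.90, below the other 4 arrays of its group (4.34 to 4.46). Igll1 in PDX array 1 of cohort 2 in the diaphragm was 2.82, above the other 4 (2.07 to 2.26).

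The tumour effect was also compared between muscles for 19 genes besides Ighm, of which 9 differed by limma's adjusted p, where 6.33% of all genes did. Of the 19, 12 were list genes taken because they rose in the diaphragm, and all 9 are among these, so their number and direction follow from that choice. The diaphragm effect minus the tibialis anterior effect was 1.62 for Cd74 (limma adjusted p = 6.34e-07), 0.47 for Cd72 (0.011), 0.82 for Syk (0.000102), 0.75 for Inpp5d (0.00145) and 0.77 for Fcgr2b (0.0377). It was 0.78 for Spi1 (0.0178), 0.56 for Ikzf1 (0.0116), 0.93 for the RNA sensor Tlr7 (0.00585) and 0.76 for Lair1 (0.000229). Cd79a, Cd79b, Ms4a1, Igll1 and Pax5 were among the 10 that did not pass.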

How the results depend on the processing

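Ighm in the diaphragm kept its direction in 14 alternative settings (-1.26 to -0.77) and lost its call in 1, without cohort 4 (-0.78, limma adjusted p = 0.0712). Leaving out single arrays gave -1.25 to -0.90 (limma adjusted p 0.000115 to 0.00422). The count of the group's genes passing in the diaphragm, 1, became 2 with array weights, when Ms4a1 passed (-0.14, limma adjusted p = 0.0227), and 0 without cohort 4. It ran from 1 to 2 when single arrays were left out, with 2 without PDX array 1 of cohort 2. Ighm in the tibialis anterior lay between -3.64 and -2.69 over the settings and between -3.21 and -2.94 without single arrays. The adjusted p of the F test over cohorts ran from 0.372 to 0.999 over the settings and from 0.559 to 0.996 without single arrays. Signs turned for Cd79b in the diaphragm with array weights (0.034), without cohort 2 (0.0624) and without cohort 3 (0.00618), and it ran from -0.061 to 0.0315 without single arrays. They turned for Pax5 without cohort 3 (-0.00791) and for Ighv2-6-8 in the diaphragm without cohort 2 (0.0557). Signs also turned in the tibialis anterior, where none of the 5 passed, for Cd79a without cohort 2 (0.0158), Ms4a1 without cohorts 2 and 4 (0.0302 and 0.0283) and with median centring (0.00155), Igll1 without cohort 4 (-0.00381) and Pax5 without cohorts 1 and 4 (0.0176 and 0.0231), and without single arrays Ms4a1 and Pax5 reached 0.00902 and 0.0158. The calls of Cd72 (limma adjusted p = 0.0656), Slamf7 (0.2) and Irf8 (0.0782) were lost without cohort 1, those of Cd72 (0.0552) and Irf8 (0.0841) without the arrays high in hepatocyte and acinar markers, and that of Fcgr2b without cohorts 1, 2 or 4 (0.0803, 0.11 and 0.0867) and without any of 3 single arrays (0.0504 to 0.0524). The cause of these changes was not tested. With the replicate block, Ighm was at -1.14 in the diaphragm (limma adjusted p = 0.00514) and at -3.30 in the tibialis anterior, and 2 of 12 sham arrays of the tibialis anterior and 5 of 12 of the diaphragm correlated best with their own number. A filter on dim genes left no value for the group's genes other than Ighm. The sham muscle settings and the likeness without 2 arrays were chosen after seeing the data.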

Other observations

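Cytokine and survival genes that act on B lymphocytes were measured outside the group. Cxcl13, the chemokine that draws B cells into follicles, was higher in PDX mice in both muscles. It was 1.97-fold higher in the tibialis anterior (limma adjusted p = 0.00108) and 2.04-fold in the diaphragm (limma adjusted p = 0.0285). Cxcl13 belongs to a list of lymph node and lymphoid stroma markers with 14 measured genes. In the tibialis anterior 2 of the 14 were higher and 1 lower (Lyve1, -0.29), and in the diaphragm 6 were higher and none lower. Tnfsf13b, the B cell survival factor BAFF, was 1.2-fold higher in the tibialis anterior (limma adjusted p = 0.0371) and 1.38-fold in the diaphragm (limma adjusted p = 0.00299). Il15, a cytokine that lymphocytes need, was lower, at 0.712 and 0.512 of the sham level (limma adjusted p 0.0183 and 0.00011). Il4ra was higher, 1.39-fold and 2.1-fold (limma adjusted p 0.0191 and 2.34e-05). Tnfsf13b, Il15 and Il4ra belong to a list of cytokine receptors and B cell survival factors with 13 measured genes. In the tibialis anterior 2 of these were higher and 2 lower, the second being Cxcl12 (-0.39, limma adjusted p = 0.0255), where 6.32% of all genes were higher and 6.53% lower. In the diaphragm 3 were higher and 1 lower, where 5.89% and 6.58% of all genes were.

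In PDX array 4 of cohort 2, whose tibialis anterior Ighm was 8.76, Col1a1 read 6.83, below the 3 sham arrays of that cohort (7.50, 8.38 and 8.16). Ostn, a hormone gene of muscle chosen after its values were seen, read 8.64 on that array and 5.43, 7.64, 8.05 and 7.42 on PDX arrays 1, 2, 3 and 5, against 8.76, 7.49 and 7.47 in sham.

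Arrays of both muscles with the same number may or may not be of 1 mouse, which the labels do not state. Their Ighm deviations from the group means had a Pearson r of 0.41 and a Spearman rho of 0.499 over 29 pairs. Without the 2 pairs farthest out, both PDX of cohort 2, r was 0.273. Over the 17 PDX pairs alone r was 0.633 and rho 0.605, and r was 0.404 without the same 2. These values are a description of these arrays, and the deviations of same-numbered arrays, taken across all genes, had a median correlation of 0.02.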
